A study of Mus musculus with 3 samples.

Results

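The genes described here are 9 members of the Ras family of small GTPases, namely Hras, Nras, Rras, Rras2, Mras, Rap1a, Rap1b, Rala and Ralb, out of 21887 protein-coding genes on chromosomes 1 to 19, X and Y. They were chosen by name, and every peak of histone H3 acetylated at lysine 27 (H3K27ac) within 100 kb of their gene bodies was taken. This gave 92 of the 38793 peaks of the post-caerulein list and 72 of the 37765 peaks of the untreated list. H3K27ac was mapped by chromatin immunoprecipitation with sequencing (ChIP-seq) in spheroids, three-dimensional cultures of pancreatic epithelial cells, from wild-type C57BL/6J mice. Spheroids came either from mice treated earlier with caerulein, which mimics cholecystokinin and in excess provokes pancreatitis, or from untreated mice. Cells of both conditions were grown with the same additions, which per the labels include epidermal growth factor, insulin, hydrocortisone, cholera toxin, tri-iodothyronine and bovine pituitary extract. The labels give neither the number of mice behind a library nor the time between caerulein and culture. There is 1 H3K27ac library per condition, so nothing below has a replicate check and no test was made. An input library of untreated spheroids belongs to the series and was not used here.

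Ras family GTPases switch between a GDP-bound resting form and a GTP-bound active form. Guanine nucleotide exchange factors (GEFs) load GTP, and GTPase-activating proteins (GAPs) return the switch to its resting form. Hras and Nras encode classical Ras proteins that pass growth factor signals to RAF kinases and phosphoinositide 3-kinase. Rras, Rras2 (also called TC21) and Mras encode related proteins with roles in adhesion and growth signalling. Rap1a and Rap1b act in integrin and cadherin adhesion, and Rala and Ralb act in exocytosis and membrane traffic through the exocyst. In the pancreas, Ras signalling is known for its part in acinar-to-ductal metaplasia and in ductal cancer. H3K27ac marks active promoters and enhancers, so the peaks show where such regions lie but not how much of a protein is made.

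The gene start was marked in both conditions at all 9 genes, meaning that a peak lay within 1 kb of it. When only the higher-scored part of each list was kept (at or above its median), 8 of the 9 were marked in both, Mras being the exception. Over all protein-coding genes 52.7% were marked in both lists, 1.77% after caerulein alone and 1.11% in untreated spheroids alone. The labelled cell type showed its own pattern as well, with 8 of 8 ductal or epithelial marker genes marked in both lists, Krt19 and Sox9 among them. Of 10 acinar markers only Bhlha15 was marked, in both lists, and none of 6 endocrine, 5 mesenchymal and 4 endothelial markers was. Of 5 immune markers, Ptprc and Cd68 were marked after caerulein and 1 of them in untreated spheroids, and the part of such cells in the results was not tested.

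The peaks over the gene starts had similar widths in the 2 lists. At Hras (chromosome 7, 141189934 to 141194019, minus strand) the start peak was 3502 bp wide after caerulein and 4259 bp in untreated spheroids. At Nras (chromosome 3, 103058285 to 103067914, plus strand) it was 2497 bp after caerulein and 2273 bp in untreated spheroids. At Rras (chromosome 7, 45017942 to 45021646, plus strand) it was 4970 bp after caerulein and 5578 bp in untreated spheroids. These 3 are the compact genes of the family, with lengths of 4.09, 9.63 and 3.71 kb, and the start peaks of Hras and Rras also reached a neighbouring gene, Lrrc56 at Hras and Scaf1 at Rras. A change there could not be given to either gene of the pair from peaks alone.

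Among the longer genes, the start peak of Rras2 (chromosome 7, 114046782 to 114117781, minus strand) measured 4384 bp after caerulein and 4138 bp in untreated spheroids. That of Rap1b (chromosome 10, 117814597 to 117845974, minus strand) measured 3754 bp after caerulein and 3820 bp in untreated spheroids. That of Rala (chromosome 13, 17880575 to 17944217, minus strand) measured 3145 bp after caerulein and 3035 bp in untreated spheroids. So these 3 starts differed little in width between the lists. The start of Ralb (chromosome 1, 119470305 to 119504782, minus strand) lay in a far wider domain of 22656 bp after caerulein and 20384 bp in untreated spheroids, the widest peak of any member window in both lists. Mras (chromosome 9, 99385420 to 99437700, minus strand) stood at the other extreme: its start peak of 2005 bp after caerulein and 1790 bp in untreated spheroids was the only peak within 100 kb. Rap1a (chromosome 3, 105727260 to 105801394) has no entry in the promoter table, and both of its ends were used. A peak of 2435 bp after caerulein and 2340 bp in untreated spheroids covered its higher-coordinate end.

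All promoters printed below lay wholly inside a peak of each list. Shown are the 250 bases before the start of Rras2 and Rap1b, the 2 genes with most peaks found in 1 list alone, of Nras, a gene whose peaks hardly differed, and of Mras, whose promoter carried the only peak of its window. Sequences are from RefSeq, build GRCm38.p6, read 5′ to 3′ on the gene's strand. Capitals mark matches to any of 7 motifs searched on both strands. These were the AP-1 motif TGACTCA, the cyclic AMP response element or CRE with the letters TGACGTCA, and the ETS motif CCGGAAG. The others were the Sp1 motif GGGCGG, the TATA box spelled as TATAAA, the CCAAT box under its own letters, and the E-box with the letters CACGTG.
Rras2 (chr7:114117782-114118031, minus strand): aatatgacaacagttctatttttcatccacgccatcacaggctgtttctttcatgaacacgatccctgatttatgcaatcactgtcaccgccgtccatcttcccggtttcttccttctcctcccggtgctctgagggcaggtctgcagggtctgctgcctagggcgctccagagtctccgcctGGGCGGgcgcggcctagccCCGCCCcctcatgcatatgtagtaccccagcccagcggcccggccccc
Rap1b (chr10:117845975-117846224, minus strand): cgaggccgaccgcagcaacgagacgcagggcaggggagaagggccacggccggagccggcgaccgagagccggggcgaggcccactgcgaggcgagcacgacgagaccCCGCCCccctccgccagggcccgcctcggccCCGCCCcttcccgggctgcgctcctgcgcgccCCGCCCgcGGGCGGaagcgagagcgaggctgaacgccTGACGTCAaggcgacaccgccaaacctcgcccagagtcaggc
Nras (chr3:103058035-103058284, plus strand): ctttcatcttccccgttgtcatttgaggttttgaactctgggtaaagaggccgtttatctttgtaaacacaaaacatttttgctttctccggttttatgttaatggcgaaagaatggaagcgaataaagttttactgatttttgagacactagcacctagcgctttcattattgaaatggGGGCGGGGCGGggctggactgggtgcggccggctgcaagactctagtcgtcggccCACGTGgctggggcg
Mras (chr9:99436713-99436962, minus strand): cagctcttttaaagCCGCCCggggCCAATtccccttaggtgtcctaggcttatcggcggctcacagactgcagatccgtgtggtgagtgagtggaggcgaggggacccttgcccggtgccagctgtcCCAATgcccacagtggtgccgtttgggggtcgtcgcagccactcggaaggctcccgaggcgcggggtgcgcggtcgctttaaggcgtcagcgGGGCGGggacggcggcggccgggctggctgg
In these 4 windows the capitals are Sp1 matches at all 4 genes (a pair at Nras shares 1 base), CCAAT matches at Mras, an E-box at Nras and the CRE at Rap1b. Over the 300 bases of the table (50 of them after the start), 8 of the 9 members had a promoter. A member counted once if any of its listed starts had a match, and Rras has 3 listed starts. The background is instead a share of promoters. GGGCGG was found at 7 of the 8, all but Rras, against 46.2% of 21263 protein-coding promoters. CCAAT was found at Hras, Mras, Ralb and Rras, against 38.2% of promoters. The E-box was found at Nras and Ralb (7.84% of promoters), the CRE at Rap1b alone (2.23%) and the ETS letters at Rala alone (11.6%). No AP-1 or TATA letters were found in the windows of these 8 genes, against 4.66% and 12.6% of promoters. A match is a string of letters and not a measured binding site.

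Peaks found in 1 list alone were next counted by their position in the windows. Peaks that share not a single base with a peak of the opposite condition are named post-only (seen after caerulein) and untreated-only. Of the 24 post-only and 5 untreated-only peaks in the windows, 0 lay within 1 kb of a member's start. Every start already held a peak in both lists, so this outcome was largely fixed beforehand. Of the post-only peaks, 13 lay in a member's gene body, 4 lay outside but nearest to the member, and 7 lay nearer to another gene. Of the untreated-only peaks, 1 lay in a gene body and 4 lay nearer to another gene. The genome-wide shares of these positions are not given here, so the counts are a description only.

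**Figure D1:**
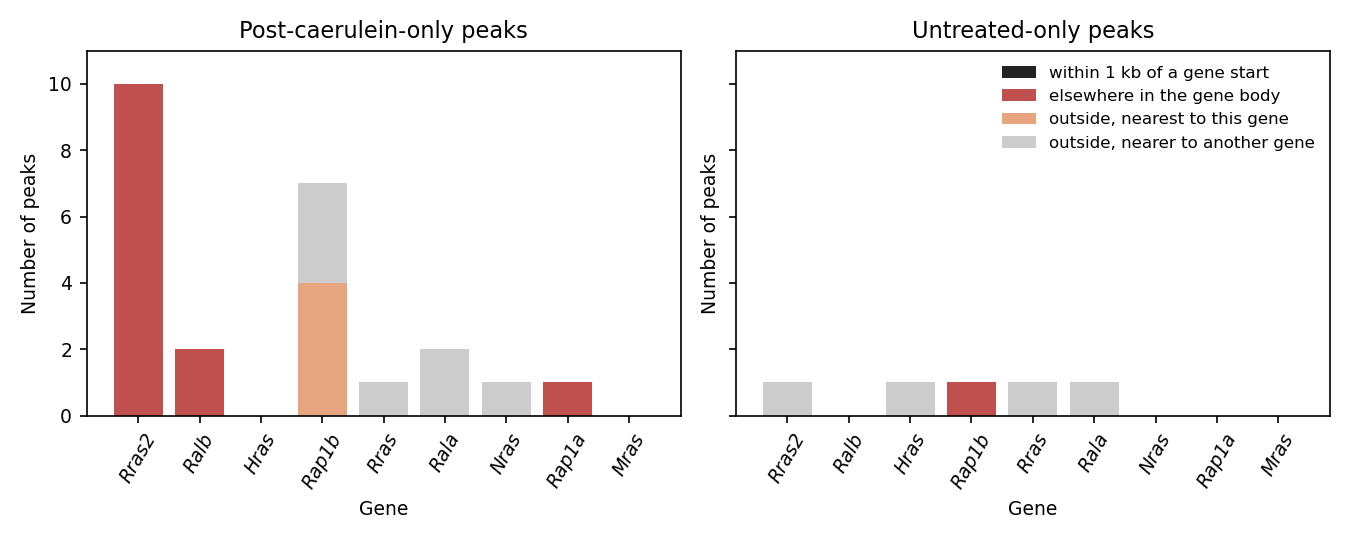
Number of post-only peaks (left) and untreated-only peaks (right) within 100 kb of each Ras family gene body, stacked by position, with genes ordered by covered length after caerulein. Rras2 had 10 post-only peaks, all in its gene body, and Rap1b had 7, all outside it.

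Post-only peaks made up 24 of 92 peaks (26.1%, exact 95% binomial interval 17.5 to 36.3), beside 17.5% of the whole post-caerulein list. Untreated-only peaks made up 5 of 72 (6.94%, 2.29 to 15.5), beside 14.3% of the whole untreated list. These intervals cover counting error over peaks only and treat neighbouring peaks as independent. Rras2 and Rap1b held 17 of the 24 post-only peaks. The other 7 genes had 7 post-only peaks of 53 (13.2%, beside 17.5% of the whole post-caerulein list). They had 3 untreated-only peaks of 47 (6.38%, interval 1.34 to 17.5, beside 14.3% of the whole untreated list). The first of these shares is a description only, since the 2 genes set aside were those with the most post-only peaks.

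By gene, 6 of the 9 members (66.7%) held a surplus of post-only over untreated-only peaks, beside 35.8% of the 18332 protein-coding genes with any peak in their window. In the other direction stood 1 of 9 members (11.1%), beside 32.0% of genes, and 2 were even. Of these 6 members, 4 leaned by just 1 or 2 peaks. The difference was 9 at Rras2, 6 at Rap1b, 2 at Ralb and 1 each at Nras, Rap1a and Rala. It was 0 at Rras and Mras and -1 at Hras. A difference of at least 6 was found at 1.11% of genes genome-wide, and 36 genes reached at least 9. Neighbouring genes share windows and so are not independent in these shares.

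Covered length, the summed length of all peaks clipped to the window, differed less than peak counts. It was greater after caerulein at 8 of 9 members, beside 52.9% of all genes. That tally depended on the peaks counted, and it was 6 of 9 within 10 kb or in the gene body alone, where Rras and Rap1b joined Hras on the lower side. It was 7 of 9 within 50 kb or after merging peaks within 1 kb (Nras turned), with peaks nearest to the gene itself (Rras turned) and with only peaks at or above the median score kept (Rap1a turned). A fold of 1.5 was passed by 0 of the 9 in either direction with a pseudocount of 1 kb, beside 6.25% of genes that were at least 1.5-fold higher after caerulein and 6.00% that were at least 1.5-fold lower. Rap1b came nearest to that fold, with 42.8 kb covered in post-caerulein and 29.0 kb in untreated spheroids (1.46-fold, log2 0.55). Rras2 had 85.2 kb in post-caerulein and 64.2 kb in untreated spheroids (1.32-fold, log2 0.40). The median log2 ratio was 0.11 over the members and 0.02 over all genes with a peak.

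**Figure D2:**
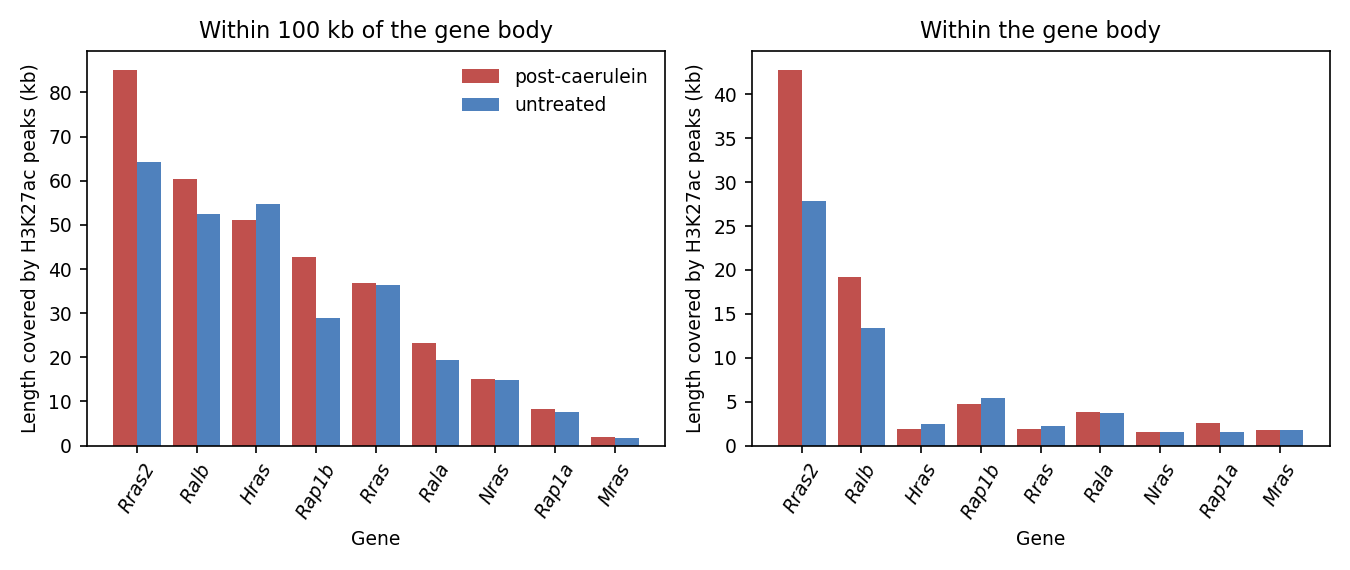
Length in kb covered by H3K27ac peaks within 100 kb of each gene body (left) and within the gene body alone (right), after caerulein and in untreated spheroids, 1 library each. Rras2 had the greatest covered length in both conditions, 85.2 kb post-caerulein and 64.2 kb untreated in the window, and Mras the least, 2.01 kb post-caerulein and 1.79 kb untreated.

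**Figure D3:**
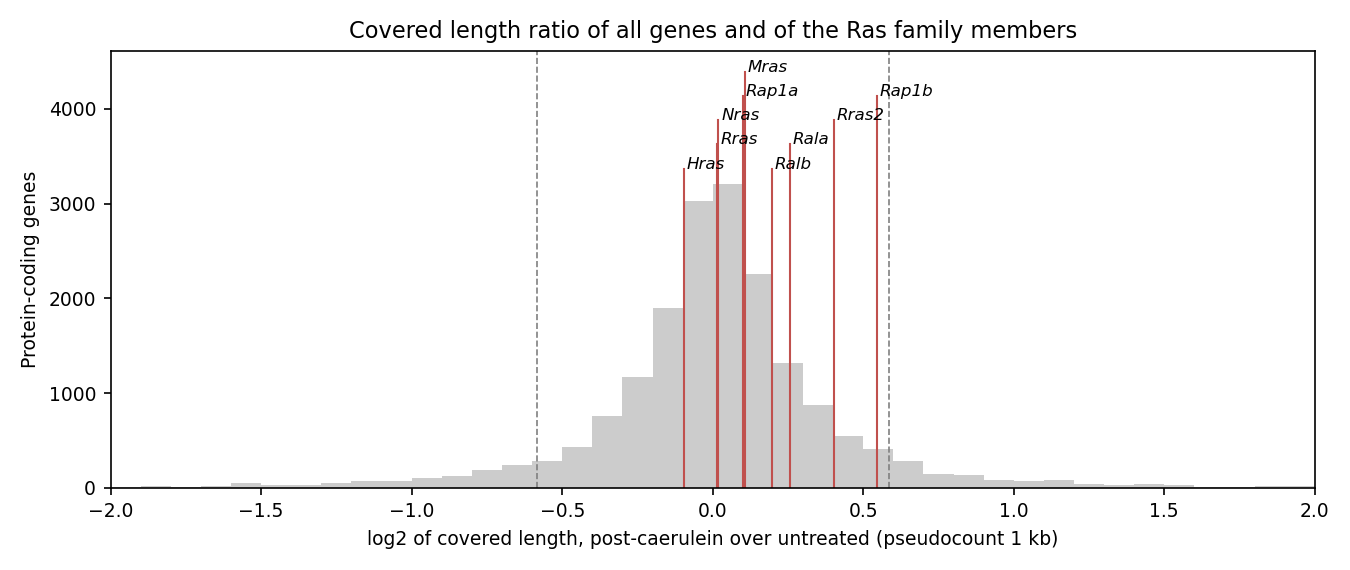
Histogram of the log2 ratio of covered length, post-caerulein over untreated, for 18332 protein-coding genes with any peak in their window (grey, axis limited to the range shown), with the 9 Ras family genes as red lines and a fold of 1.5 as dashed lines. All 9 lie between the dashed lines, from -0.10 at Hras to 0.55 at Rap1b.

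The classical Ras genes were nearly even. Hras had 11 peaks after caerulein and 11 in untreated spheroids, covering 51.1 kb in the post-caerulein list and 54.8 kb in the untreated one. This was the only member with less covered length after caerulein (log2 -0.10). Its window is crowded, with 14 other protein-coding genes, and the start peak was the only peak of each list at Hras itself. The widest peak of that window, 14105 bp in untreated spheroids over Pkp3, Sigirr and Ano9, stood opposite separate post-caerulein peaks of 9888 bp and 2869 bp. The only list-only peak was untreated-only, 1301 bp wide at Sct, with a score of 64.49. Nras had 6 peaks after caerulein and 5 in untreated spheroids, covering 15.0 kb in the post-caerulein list and 14.8 kb in the untreated one (log2 0.02). Its extra post-caerulein peak of 1200 bp (score 95.5) lay 64.2 to 65.4 kb before the Nras start and nearest to Sike1.

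The deposited score has no stated definition and was used here only to order peaks within a list. It piles up at 3100, with 5828 post-caerulein and 8440 untreated peaks at or above that value. Its lowest value was 50.01 after caerulein and 50.0 in untreated spheroids. Its medians were 526.37 after caerulein and 681.38 in untreated spheroids. List-only peaks of the Ras windows were low by that measure. The 24 post-only peaks had a median score of 88.8 and a median width of 1292 bp, and the 5 untreated-only peaks had a median score of 64.5 and a median width of 1663 bp. Only 1 post-only peak, at Rras2, and 0 untreated-only peaks reached the median score of their list. In the Ras windows 95.8% of post-only peaks lay under the median score of the list, beside 97.3% of all post-only peaks.

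Rras2 carried the largest set of post-only peaks of the family, and all 10 touched its gene body. Within the 71.0 kb of the gene, 15 post-caerulein peaks covered 42.8 kb (60.3%), while 5 untreated peaks covered 27.8 kb (39.2%). In the gene body alone the covered length passed the fold of 1.5 (log2 0.60), which 9.16% of 13321 genes with a peak in their body did in that direction and 7.66% did in the other. In a bulk culture, a mark in more cells and a stronger mark per cell cannot be told apart. The additional peaks filled spaces between peaks that both conditions had. A run of 5 post-only peaks, 1143 to 1740 bp wide, lay 21.7 to 31.4 kb after the start, inside 19.5 kb without an untreated peak. Their scores ran from 64.54 to 119.43.

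Nearer to the Rras2 start, a post-only peak of 3891 bp (score 321.94) lay 4.09 to 7.98 kb after it and another of 890 bp (score 76.61) lay 11.6 to 12.5 kb after it. At the far end of the gene, a peak of 3705 bp lay 70.8 to 74.5 kb after the start, across the end of Rras2 and into the neighbouring Spon1, an extracellular matrix protein gene. With a score of 615.61 this was the highest-scored post-only peak of any member window. A narrow peak of 1169 bp (score 57.41) lay beside it, and 1 of 901 bp (score 71.85) adjoined the wide domain described next.

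The shared peaks of the Rras2 window differed in width in both directions. The widest in the gene, 13046 bp after caerulein and 12805 bp in untreated spheroids, lay 41.4 to 54.5 kb after the start at a score of 3100 in each list. A peak 59.6 to 65.8 kb after the start was 6114 bp wide after caerulein and 4358 bp in untreated spheroids. Another went the other way, with 3161 bp after caerulein and 4993 bp in untreated spheroids, 12.5 to 17.5 kb after the start. So did a peak beyond the gene, inside Spon1. It was 1518 bp wide with a score of 78.03 after caerulein and 2566 bp wide with a score of 789.3 in untreated spheroids. Before the gene, at 50.0 to 67.0 kb, post-caerulein peaks of 8948 and 7676 bp stood opposite untreated peaks of 7356, 1894 and 6216 bp. These peaks lay nearer to Copb1 than to Rras2. Of 10 pairs of peaks that matched 1 to 1 in this window, 7 were wider after caerulein, beside 55.4% of 27197 such pairs genome-wide. The only untreated-only peak of the window, 2052 bp with a score of 426.48, was the highest-scored of its kind among the members. It lay in Spon1, 104.5 kb after the Rras2 start.

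**Figure D4:**
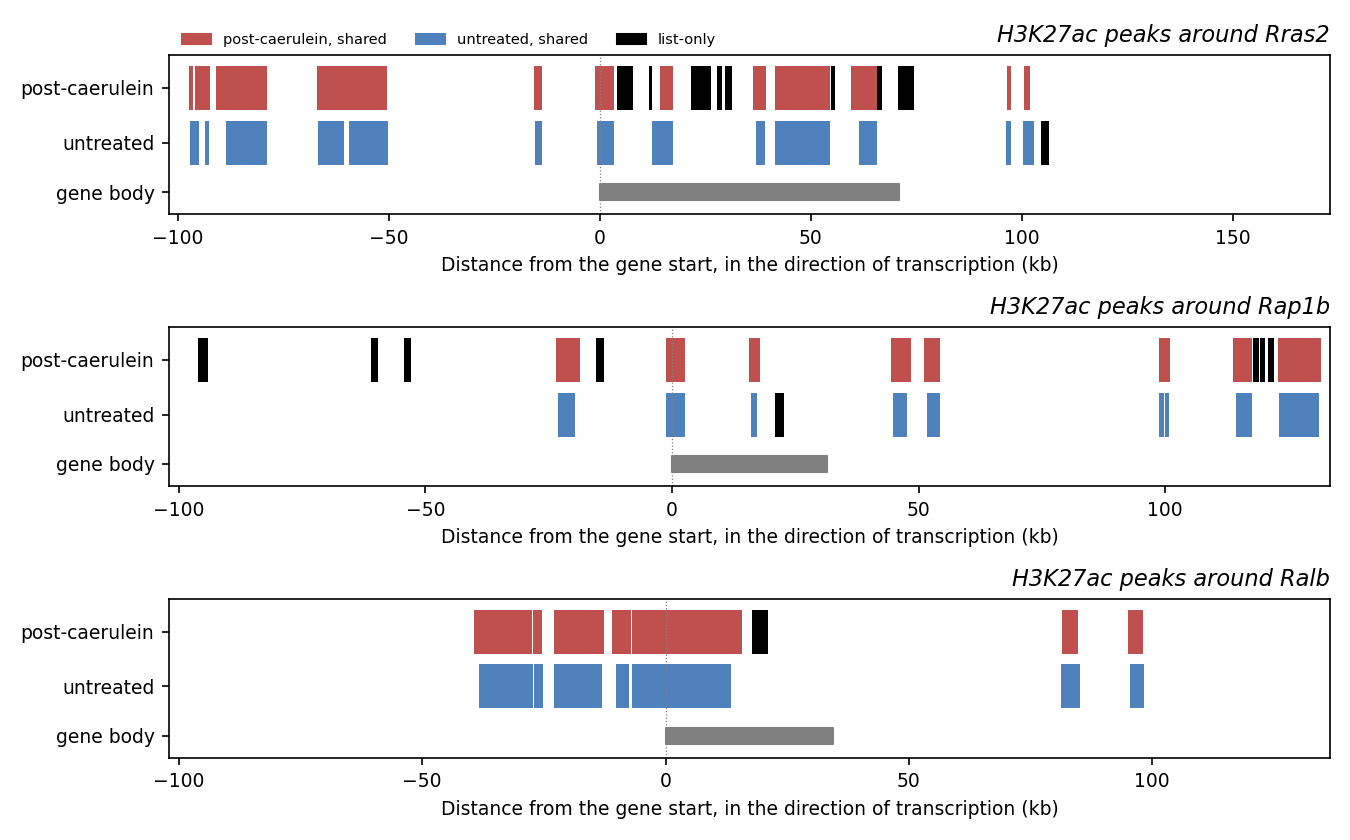
H3K27ac peaks around Rras2, Rap1b and Ralb drawn to scale against distance from the gene start in kb, post-caerulein above untreated, with list-only peaks in black and the gene body in grey. Black post-caerulein peaks lie inside the Rras2 and Ralb gene bodies but outside the body of Rap1b.

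The count at Rras2 depended on how peaks were cut and filtered, while its direction did not. The difference of 9 became 5 when a peak within 1 kb of a peak of the other list counted as shared, 3 after peaks within 1 kb were merged and 1 with peaks under the median score left out. It was 10 for peaks in the gene body alone.

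Rras and Mras, the closest relatives of Rras2 in this set, had no post-only peak in the gene body. Each had only 1 peak in its body in either list, and Rras is just 3.71 kb long. Neither could thus show peaks that fill spaces between shared peaks of the gene. Rras had 12 peaks after caerulein and 11 in untreated spheroids, covering 36.9 kb in the post-caerulein list and 36.5 kb in the untreated one (log2 0.02), with 1 list-only peak on each side. The post-only peak lay in Cpt1c, 1306 bp wide with a score of 108.15, and the untreated-only peak lay in Prr12, 1663 bp wide with a score of 59.17. With 12 other genes in the window, the start peak was the only peak of each list at Rras itself. The widest peak of the window lay over Bcl2l12, Irf3 and Scaf1, at 6982 bp after caerulein, whereas in untreated spheroids the widest was 5734 bp, in Prmt1. Mras had its 1 start peak in each list and no list-only peak.

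At the Rap genes the 2 paralogues differed in how much of the surrounding chromatin was marked. Rap1b had 16 peaks after caerulein and 10 in untreated spheroids, with 7 post-only peaks and 1 untreated-only peak. None of the 7 lay in the gene: 4 lay before the start, and 3 lay 117.8 to 122.1 kb after it, nearer to Slc35e3. Those before the start were found 13.9, 52.9, 59.7 and 94.1 kb from it, and the farthest of these (2041 bp, score 234.69) had the highest score. The 3 farthest before the start lay in a stretch of 891.3 kb without any untreated peak. The single untreated-only peak, 1687 bp wide with a score of 99.77, lay inside the gene, 21.0 to 22.6 kb after the start.

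Shared peaks around Rap1b were also mostly wider after caerulein, 8 of 9 matched pairs, with a median width ratio of 1.22, beside 1.02 over all pairs genome-wide. Over all member windows 35 of 60 pairs (58.3%) were wider after caerulein, beside 55.4% genome-wide, with a median ratio of 1.04. Beside Rras2 and Rap1b, it was 5 of 7 at Ralb, 5 of 8 at Rala, 3 of 5 at Nras and 1 of 1 at Mras. It was 3 of 8 at Rras, 1 of 3 at Rap1a and 2 of 9 at Hras. Around Rap1b, a peak of 4832 bp after caerulein and 3522 bp in untreated spheroids lay 18.6 to 23.4 kb before the start. Another of 3964 bp after caerulein and 2870 bp in untreated spheroids lay 44.5 to 48.5 kb after it, between Rap1b and Nup107. The widest of the window, 8733 bp after caerulein and 8068 bp in untreated spheroids, lay nearest to Mdm2. Within the gene body the order was turned, with 4.74 kb covered in post-caerulein and 5.42 kb in untreated spheroids. Outside the body, post-caerulein peaks covered 38.1 kb and untreated peaks 23.6 kb. The difference of 6 list-only peaks at Rap1b accordingly became -1 within 10 kb of the gene or in the gene body alone and 0 within 50 kb, and the log2 ratio of covered length became -0.13 within 10 kb.

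Rap1a had a sparse window, with 4 peaks after caerulein and 3 in untreated spheroids, covering 8.32 kb in the post-caerulein list and 7.70 kb in the untreated one (log2 0.10). With only the higher-scored peaks kept the log2 ratio became -0.50. Its post-only peak, 1021 bp wide with a score of 97.89, lay in the gene body, 30.1 kb from the lower-coordinate end. The widest peak of that window lay in Ddx20, with 2725 bp after caerulein and 2935 bp in untreated spheroids.

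Rala and Ralb encode proteins that share the exocyst as a partner, and their windows differed widely in covered length. Ralb had 9 peaks after caerulein and 7 in untreated spheroids, covering 60.3 kb in the post-caerulein list and 52.5 kb in the untreated one (log2 0.20). Inside the 34.5 kb gene body, 55.5% was covered after caerulein and 39.0% in untreated spheroids. The start domain reached 15.8 kb into the gene after caerulein and 13.4 kb in untreated spheroids. Beyond it lay both post-only peaks of the window, 1727 and 1655 bp wide, 17.7 to 21.1 kb after the start, with scores of 99.46 and 85.29. Peaks thus reached farther into Ralb in the post-caerulein list, through a longer domain and 2 low-scored peaks.

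Rala, 63.6 kb long, was covered over 6.06% of its body after caerulein and 5.78% in untreated spheroids. In its body it had the start peak and 1 further peak, 1953 bp after caerulein and 1959 bp in untreated spheroids, 42.1 kb after the start. Within 100 kb it had 10 peaks after caerulein and 9 in untreated spheroids, covering 23.2 kb in the post-caerulein list and 19.3 kb in the untreated one (log2 0.26). Both post-only peaks and the untreated-only peak of this window were nearer to Cdk13 or Yae1d1 than to Rala. The widest was a peak in Cdk13 of 4493 bp after caerulein and 4180 bp in untreated spheroids.

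The regulators and effectors of the family gave a mixed picture. Of 60 pathway genes, all with at least 1 peak within 100 kb, 25 (41.7%) had more post-only peaks and 22 (36.7%) more untreated-only peaks, beside 35.8% of all genes on the post-caerulein side and 32.0% on the untreated side. Covered length was at least 1.5-fold higher after caerulein at 6 (10.0%) and at least 1.5-fold lower at 5 (8.33%), beside 6.25% of all genes higher and 6.00% lower. The median log2 ratio was 0.05, beside 0.02 over all genes. The gene start was marked in both lists at 47, after caerulein alone at 2 and in untreated spheroids alone at 1.

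Split by role, the GAPs leaned to the post-caerulein side at 11 of 18 genes (61.1%) and to the untreated side at 4 (22.2%). Of 19 GEFs, 7 (36.8%) leaned to the post-caerulein and 8 (42.1%) to the untreated side. Of 15 effectors, 6 (40.0%) leaned to the post-caerulein and 6 (40.0%) to the untreated side. Of 8 enzymes that process Ras proteins, 1 (12.5%) leaned to the post-caerulein and 4 (50.0%) to the untreated side. Over all genes, 35.8% leaned to the post-caerulein and 32.0% to the untreated side. Differences between these roles were not tested.

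Regulators of Ral were found on either side. Ralgps2, a GEF for Ral, had 9 post-only peaks and 1 untreated-only peak, with 52.7 kb covered in post-caerulein and 36.0 kb in untreated spheroids (log2 0.54). Ralgapa2, a catalytic subunit of a GAP complex for Ral, had 7 post-only and 1 untreated-only peak, with 58.5 kb in post-caerulein and 31.7 kb in untreated spheroids (log2 0.86). Ralgps1, the paralogue of Ralgps2, had 0 post-only and 3 untreated-only peaks, with 20.1 kb in post-caerulein and 41.2 kb in untreated spheroids. So the 2 paralogous GEFs leaned in opposite directions.

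Among Ras and Rap regulators, the GAP genes Rasal1 and Rasal2 each had 5 post-only peaks and 0 untreated-only peaks. Covered length at Rasal1 was 38.4 kb in post-caerulein and 25.2 kb in untreated spheroids (log2 0.59), and at Rasal2 it was 35.5 kb in the post-caerulein list and 25.0 kb in the untreated one (log2 0.49). The windows of Rasal2 and Ralgps2 overlap by 4.67 kb and share 1 of these peaks. Rapgef2, a GEF for Rap, had 4 post-only and 0 untreated-only peaks, and Rap1gap2, a GAP for Rap, had 2 post-only and 6 untreated-only peaks. Rap1gap2 was covered over 42.6 kb in post-caerulein and 59.1 kb in untreated spheroids (log2 -0.46).

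Shoc2, a scaffold that acts with Mras in the activation of RAF kinases, had 3 post-only peaks and 0 untreated-only peaks, with 26.4 kb in post-caerulein and 15.5 kb in untreated spheroids (log2 0.73). Rgs14, which encodes a protein that binds Ras and Rap, had 0 post-only and 4 untreated-only peaks, with 17.9 kb in post-caerulein and 33.6 kb in untreated spheroids (log2 -0.87). Its gene start was marked in neither list. The remaining pathway genes past the fold are named here after their values were seen. Covered length was at least 1.5-fold higher, beside Ralgapa2, Rasal1 and Shoc2, at 3 more. Rasgrp3, a GEF, had the largest ratio of the pathway list in either direction (log2 1.39), from a sparse window of 6.30 kb in post-caerulein and 1.80 kb in untreated spheroids. The others were Rasa3, a GAP (log2 0.60), and Rasgrf2, a GEF (log2 0.58). Rasgrf2 lay exactly at the fold of 1.5 with the pseudocount of 1 kb. Its window was also sparse, with 6.07 kb in post-caerulein and 3.72 kb in untreated spheroids. Besides Ralgps1 and Rgs14, covered length was at least 1.5-fold lower at Rgl1 (log2 -0.60), Exoc2 (log2 -0.70) and Zdhhc9 (log2 -0.62).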

How the data were processed

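Per the submitters' processing notes, the tools were Trimmomatic 0.38, Bowtie2 2.2.6, SAMtools and MACS 1.4 and the builds GRCm38 and mm10, which are 2 names of the same assembly. The authors deposited 1 peak list for each H3K27ac library, and no samples were pooled for a list. Each deposited row gives a position, a peak name and a score that no header defines and that piles up at 3100. The score was used only within a list. The control library and caller options are not given in the sources used here, and depth is unknown.

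Gene bodies and promoters came from RefSeq tables of GRCm38.p6. Exons and introns were not used here. Peaks were taken as shared when they overlapped by 1 bp or more, and covered length was summed within 100 kb of the gene body, with a pseudocount of 1 kb in ratios. The overlap and length code was checked on simulated data and against bedtools. Tables were computed with Python 3.11.15, numpy 2.4.6, pandas 2.3.3 and scipy 1.17.1.

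The members, pathway list, markers and motifs were chosen with earlier results of these data known. From the pathway list the text names up to 10 genes with the largest difference in list-only peaks of at least 3, and from the windows the 3 highest-scored list-only peaks of each list and the widest peak of each member. Some results that this rule would name are not reported here. No likeness of pattern between genes can be measured over 2 libraries.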

Additional observations from a re-analysis of the deposited data

How the results depend on the processing

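Depth is unknown and most list-only peaks have low scores, which limits every count of them. The gene body alone was added after seeing the data and the other alternatives were planned. In the gene body alone, 9.16% of genes were at least 1.5-fold higher after caerulein and 7.66% at least 1.5-fold lower. More post-only peaks were found there at 15.7% of genes and more untreated-only peaks at 13.6%. Shares of all genes under the other alternatives are not given here, so counts under them cannot be set against the genome. Members at least 1.5-fold higher after caerulein, 0 as reported, numbered 1 with a 10 kb window (Rras2), 1 in the gene body alone (Rras2), 2 with peaks nearest to the gene itself (Rras2 and Rap1b), 3 with peaks at or above the median score (Mras, Rap1b and Rala) and 1 after merging within 1 kb (Rap1b). At Mras the score limit gave a log2 ratio of 1.59, because it removed the untreated peak and kept the post-caerulein one. Members with more post-only peaks, 6 as reported, numbered 3 with a 10 kb window, 3 in the gene body alone and 1 with the score limit. They numbered 4 with a 50 kb window, nearest peaks only or merging, and 5 with a 1 kb tolerance. Members with more untreated-only peaks, 1 as reported, numbered 0 with a 50 kb window, nearest peaks only, the score limit, merging or a 1 kb tolerance. Pathway genes past the fold, 6 higher and 5 lower as reported, numbered 10 higher and 3 lower with a 10 kb window and 3 higher and 2 lower with a pseudocount of 5 kb, and lower ones numbered 2 with a 50 kb window and 3 with the score limit. Pathway genes with more post-only peaks, 25 as reported, numbered 1 with the score limit, and those with more untreated-only peaks, 22 as reported, numbered 4. The order of these counts also turned with a 50 kb window (19 post-only, 24 untreated-only). They were equal with a 10 kb window (18 each) and when equal numbers of the highest-scored peaks were taken from each list (22 each). At Rap1a the score limit gave -0.50, against 0.10 as reported. At Rap1b the difference of 6 reversed to -1 with a 10 kb window and in the gene body alone. The cause of the other changes was not tested. Gene starts marked in both lists, 9 as reported, numbered 8 with the score limit, which left out Mras, and 9 under the other 3 alternatives tried for them. No paired analysis was possible because the series has only 1 H3K27ac library per condition, which also prevents leaving a library out.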
